A study of Mus musculus with 6 samples.

Results

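Bile duct secretion was described here through 9 genes in mouse liver RNA, chosen by name: Sctr, Cftr, Ano1, Clic6, Clca3a2, Gabrp, Slc4a2, Aqp1 and Muc1. All 9 were found in the deposited table of 55401 genes, and all 9 were among the 18931 genes with enough counts to be tested. The list was drawn up with values of this same comparison known, and Clic6, Clca3a2 and Gabrp were taken because they had no counts in the livers without Cre. The differences of the 9 genes between genotypes are therefore given as a description, and how many of them passed a test threshold is not read as a result.

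Livers came from 3 Prdx1(lox/lox);Alb-cre mice and 3 Prdx1(lox/lox) mice, below called Alb-cre and lox/lox. All 6 were males, 8 weeks old at the start and then kept on MCD for 5 weeks. MCD is the label's own abbreviation, commonly used for feed lacking methionine and choline. Every mouse carried floxed alleles of Prdx1, which encodes the peroxide-reducing enzyme peroxiredoxin 1. The albumin promoter drives Cre in hepatocytes and is also active in the fetal precursors that hepatocytes share with duct cells, and which cells lost Prdx1 was not measured. Cre was absent from the lox/lox mice, so effects of the transgene and of the deletion cannot be told apart, and no mice on another diet were compared. The labels name neither the floxed exons nor any litter or batch.

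Cholangiocytes, the epithelial cells of bile ducts, modify the bile that hepatocytes make. Secretin binds its receptor on the basal side of these cells and raises cyclic AMP. The cyclic AMP opens the apical chloride channel CFTR, chloride is then exchanged for bicarbonate by the anion exchanger AE2, and water follows through aquaporins. Calcium signals open a separate class of apical chloride channels, and membrane mucins coat the surface.

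The deposited counts summed to between 58790874 and 78291273 in Alb-cre livers and between 63189210 and 67319086 in lox/lox livers. One read pair was taken as about 4 of these counts, because the counts piled up at 4. Levels are given as CPM, which are counts scaled to 1 common total by TMM factors of 1.10 to 1.16 for Alb-cre and 0.869 to 0.887 for lox/lox libraries. Prdx1 (chr4:116685544-116700822 of GRCm38, plus strand) had 78.7, 111 and 75.4 CPM in Alb-cre livers, against 644, 570 and 663 CPM in lox/lox livers. It was lower in every Alb-cre library, by a log2 fold change of -2.82 ± 0.17 (SE; edgeR quasi-likelihood test, Benjamini-Hochberg adjusted p = 4.4e-05). Of the 18931 genes tested, 3767 (19.9%) passed an adjusted p of 0.05 as higher in Alb-cre livers and 3415 (18.0%) as lower, which together is 37.9%. With library sizes alone in place of TMM factors the same counts were 6459 and 1249, so the share of higher genes among the calls was 83.8%, against 52.5% with TMM factors. On FPKM values, which are the deposited levels scaled by length and depth, it was 83.0%.

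The upstream sequences of 3 of the genes are shown because they differ widely in their content of G and C among genes that were high in Alb-cre and low or at 0 in lox/lox livers. Each is the 250 bases before the RefSeq start site in GRCm38.p6, 5′ to 3′ on the gene's strand, and capitals mark matches to the motifs searched. They lie at chr6:18170437-18170686 (plus) for Cftr, chr11:33578958-33579207 (minus) for Gabrp and chr3:89228806-89229055 (plus) for Muc1.
Cftr: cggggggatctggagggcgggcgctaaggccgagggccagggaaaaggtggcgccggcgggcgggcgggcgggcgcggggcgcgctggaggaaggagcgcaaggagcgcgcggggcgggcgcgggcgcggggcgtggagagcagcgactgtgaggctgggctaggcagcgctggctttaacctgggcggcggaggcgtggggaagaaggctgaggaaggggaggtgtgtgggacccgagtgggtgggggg
Gabrp: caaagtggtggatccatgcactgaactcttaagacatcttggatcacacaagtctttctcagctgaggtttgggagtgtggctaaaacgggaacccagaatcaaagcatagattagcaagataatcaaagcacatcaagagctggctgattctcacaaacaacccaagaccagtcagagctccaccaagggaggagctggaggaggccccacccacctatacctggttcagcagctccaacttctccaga
Muc1: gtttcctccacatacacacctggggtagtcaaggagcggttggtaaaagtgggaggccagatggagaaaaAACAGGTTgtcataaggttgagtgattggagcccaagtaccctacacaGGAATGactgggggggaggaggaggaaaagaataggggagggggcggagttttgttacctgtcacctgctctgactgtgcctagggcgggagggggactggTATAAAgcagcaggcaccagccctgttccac

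Over the 300-base window from 250 bases before to 50 after the start, Cftr was 71.3% G and C with 31 CpG dinucleotides. The window of Gabrp was 50.3% G and C with 4 CpG, and that of Muc1 was 55.7% with 6. The median of the 32851 windows in the RefSeq table was 52.7% with 7 CpG. Cftr was thus far above that median in both measures, while Gabrp, without counts in lox/lox livers, was below it in both. Ano1 was at 71.7% with 18 CpG, Aqp1 at 62.7% with 8, and the 2 windows of Slc4a2 at 72.0% with 37 and 61.3% with 16. Windows of 6 of the 9 genes are described.

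Motifs were searched on both strands, and the matches in the windows of these 6 genes are given. Muc1 held the TEAD motif GGAATG at position -132 from the start site (14.7% of all windows), the grainyhead-like motif AACCNGTT on the opposite strand at -180 (2.09%), and the TATA box TATAAA at -31 (13.6%). The RBPJ motif GTGGGAA occurred in Ano1 and in 1 window of Slc4a2 (6.38% of all windows). The HNF1 motif GTTAAT, the cyclic AMP response element TGACGTCA and the FOXA motif TGTTTAC, present in 7.1%, 1.79% and 3.65% of all windows, were in none of them. These are letter matches and not measured binding sites.

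Sctr, the secretin receptor (chr1:120006894-120063536, plus strand), was higher in Alb-cre livers. It had 3.18, 3.42 and 4.75 CPM in Alb-cre livers, against 0.375, 0.103 and 0.137 CPM in lox/lox livers. The groups did not overlap, and the lowest Alb-cre library stood well above the highest lox/lox library. The means were 3.78 ± 0.845 CPM in Alb-cre and 0.205 ± 0.148 CPM in lox/lox livers (SD, n = 3 each), an 18.5-fold ratio. In bulk liver RNA, more cells of a type and more RNA per cell cannot be told apart. The lox/lox mean rested on 21, 6 and 8 deposited counts. The ratio was 31.6-fold without lox/lox replicate 1 and 14.8-fold without lox/lox replicate 2. The transcript of secretin itself, Sct, was at or under a floor of 12 deposited counts over each genotype and was not tested.

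Cftr, the chloride channel opened by cyclic AMP and the gene altered in cystic fibrosis (chr6:18170687-18322767, plus strand), had 6.69, 7.91 and 7.49 CPM in Alb-cre livers. In lox/lox livers it had 0.607, 0.0684 and 0.0684 CPM, from 34, 4 and 4 deposited counts. Expression was thus seen in every Alb-cre liver, while 2 of the 3 lox/lox libraries held about 1 read pair each. The means were 7.36 ± 0.619 CPM in Alb-cre and 0.248 ± 0.311 CPM in lox/lox livers (SD, n = 3 each), a 29.7-fold ratio. Without lox/lox replicate 1, the other libraries of that genotype held 8 deposited counts together, and the ratio taken to a floor of 12 counts was 71.7-fold. Leaving out lox/lox replicate 2 or 3 gave 21.8-fold.

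Ano1, which encodes the calcium-activated chloride channel TMEM16A (chr7:144588549-144738592, minus strand), was present in both genotypes. It had 30.2, 29.3 and 27.2 CPM in Alb-cre livers, against 9.72, 5.50 and 6.36 CPM in lox/lox livers. The groups did not overlap, with lox/lox replicate 1 again the highest of its genotype. The means were 28.9 ± 1.54 CPM in Alb-cre and 7.20 ± 2.23 CPM in lox/lox livers (SD, n = 3 each), a 4.02-fold ratio.

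Clic6, a member of the chloride intracellular channel family (chr16:92485736-92541243, plus strand), had 6.73, 5.63 and 7.35 CPM in Alb-cre livers, and none of the 3 lox/lox libraries held a count. Gabrp, the pi subunit of the GABA-A receptor, a chloride channel family best known from neurons (chr11:33550781-33578959, minus strand), had 2.86, 3.86 and 6.36 CPM in Alb-cre livers and no counts in lox/lox livers. Clca3a2, of the CLCA family of secreted or membrane-bound regulators of chloride conductance (chr3:144796559-144819494, minus strand), had 2.67, 4.77 and 4.23 CPM in Alb-cre livers and no counts in lox/lox livers. All 9 Alb-cre values of these 3 genes lay above 0, which is the property they were chosen for. Against the floor of 12 deposited counts (3 read pairs) over the lox/lox group, the mean of Clic6 was at least 94.7-fold higher, that of Gabrp at least 62.8-fold and that of Clca3a2 at least 56.0-fold. These bounds scale with the counts over which the floor is spread: with any 1 lox/lox library left out they were at least 62.6-fold, 41.6-fold and 37.1-fold at their lowest. A complete lack of lox/lox counts was shared by 178 of the genes called higher.

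Clca3a2 has a close copy, Clca3a1, on the same chromosome, and their annotated transcripts in GENCODE M21 were 96.4% identical over 3427 aligned bases. Of the 50-base windows in Clca3a2's exons, 21.77% also occur in Clca3a1, so reads from these stretches could have been split between the genes. A 60-base stretch of coding sequence in exon 5 is shown because it tells the copies apart. It lies at chr3:144813994-144814053 for Clca3a2 and at chr3:144755271-144755330 for Clca3a1 (GRCm38, both minus strand), and capitals mark the 13 bases that differ.
Clca3a2: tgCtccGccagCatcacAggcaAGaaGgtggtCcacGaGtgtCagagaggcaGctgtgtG
Clca3a1: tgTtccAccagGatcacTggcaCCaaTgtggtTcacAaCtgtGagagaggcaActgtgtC

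Clca3a1 was detected in both genotypes, with 96.7, 122 and 94.0 CPM in Alb-cre livers, against 16.6, 17.8 and 17.0 CPM in lox/lox livers. It rose by a log2 fold change of 2.61 ± 0.13 (SE; edgeR, adjusted p = 2.3e-05), and the groups did not overlap. Clca3a2 had 2.76, 3.89 and 4.50 deposited counts per 100 of Clca3a1 in the Alb-cre libraries, and 0 in each lox/lox library. At the Alb-cre ratio of summed counts, the 2964 lox/lox counts of Clca3a1 would go with 112 counts of Clca3a2, where 0 were listed. Clca3a2 was chosen for that 0, so nothing is read from this difference. At about 4 counts per read pair, the read pairs behind the 112 would also be about 4 times fewer. How much of the Clca3a2 signal is reads shared with Clca3a1 was not tested. The more distant Clca3b (82.9% identical) had 8 counts in Alb-cre replicate 1 and 0 in the other 5 libraries, and Clca1, Clca2, Clca4a and Clca4b had none.

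Slc4a2, the anion exchanger AE2 that trades chloride for bicarbonate (chr5:24423837-24440950, plus strand), had 64.3, 58.7 and 59.7 CPM in Alb-cre livers, against 57.0, 56.7 and 67.6 CPM in lox/lox livers. The groups overlapped, and the highest library of all was a lox/lox one. The means were 60.9 ± 3.02 CPM in Alb-cre and 60.4 ± 6.22 CPM in lox/lox livers (SD, n = 3 each), a 1.01-fold ratio. The scaling decided whether the groups overlapped: in FPKM the means were 7.49 ± 0.492 in Alb-cre and 5.83 ± 0.622 in lox/lox livers, with no overlap. With library sizes alone, the log2 ratio of Slc4a2 was 0.38 while the median of all genes was 0.41, beside 0.05 with TMM factors. Relative to that median, Slc4a2 stood at -0.04 under both. Slc4a2 also shares 1141 exon bases with Fastk on the opposite strand, and the strand setting of the counting is not given in the sources used here. Fastk itself had 1770, 2349 and 2011 deposited counts in Alb-cre libraries and 2040, 2079 and 2035 in lox/lox libraries.

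Aqp1, the water channel of ducts, also made by endothelium and red cells (chr6:55336432-55348555, plus strand), had 261, 228 and 234 CPM in Alb-cre livers, against 192, 194 and 209 CPM in lox/lox livers. The groups did not overlap, though the lowest Alb-cre library lay close to the highest lox/lox library. The means were 241 ± 17.7 CPM in Alb-cre and 198 ± 9.04 CPM in lox/lox livers (SD, n = 3 each), a 1.21-fold ratio. On the log2 scale this was 0.28, and with library sizes alone 0.65, which is 0.23 above the median of all genes under both. Endothelial markers summed to between 656 and 757 CPM in Alb-cre livers and between 697 and 726 CPM in lox/lox livers, and erythroid markers to between 118 and 177 CPM in Alb-cre livers and between 174 and 183 CPM in lox/lox livers. The part of these cells in the Aqp1 level was not tested.

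Muc1, a membrane mucin of glandular and duct surfaces (chr3:89229057-89233381, plus strand), had 12.5, 12.2 and 12.2 CPM in Alb-cre livers, against 1.30, 0.803 and 1.10 CPM in lox/lox livers. The 3 Alb-cre libraries were almost level with one another and far above all lox/lox libraries. The means were 12.3 ± 0.193 CPM in Alb-cre and 1.07 ± 0.251 CPM in lox/lox livers (SD, n = 3 each), an 11.5-fold ratio.

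**Figure D1:**
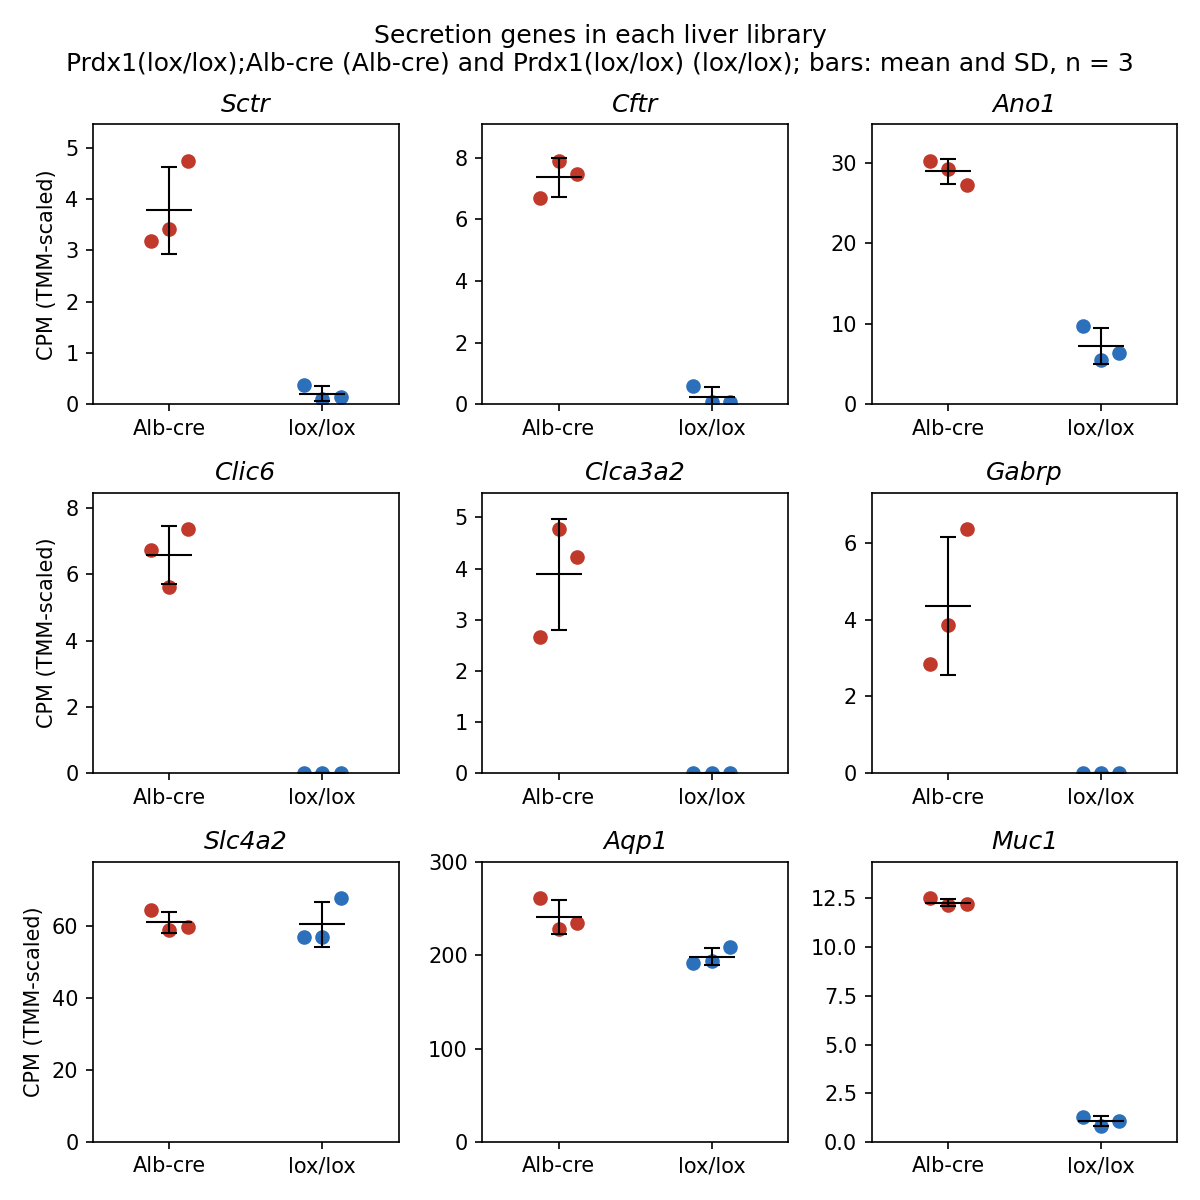
CPM of the 9 secretion genes, 1 panel each with its own linear axis from 0. Points are the Alb-cre and the lox/lox libraries, and bars are the mean and SD (n = 3 each). The genotypes overlap for Slc4a2 and for no other gene, and Clic6, Clca3a2 and Gabrp are at 0 in every lox/lox library.

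Of the 9 genes, 8 passed the edgeR threshold as higher in Alb-cre livers, beside 19.9% of all tested genes, and none passed as lower. The same 8 had all Alb-cre libraries above all lox/lox libraries, beside 28.8% of all tested genes, and none had them all below, beside 24.2%. Slc4a2 was the exception in both counts. Leaving out any 1 library except lox/lox replicate 3 brought the edgeR count to 7, since Aqp1 then missed the threshold. With library sizes alone and with limma on FPKM it was 9, with Slc4a2 past the threshold as higher. As the genes were chosen on this comparison, nothing is read from these shares. Spread among Alb-cre livers differed between genes, from a coefficient of variation of 1.57% for Muc1 through 8.41% for Cftr to 41.3% for Gabrp, whose 3 values span the widest relative range of the 9.

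Levels were compared between genes in FPKM. In Alb-cre livers Aqp1 was highest with 94.0 ± 8.30 FPKM, followed by Slc4a2 with 7.49 ± 0.492, Muc1 with 5.36 ± 0.205 and Ano1 with 4.68 ± 0.378 FPKM (SD, n = 3). Each of these 4 lay above the next gene in every library, without overlap. The other 5 followed in the order Sctr at 1.92 ± 0.367, Clic6 at 1.71 ± 0.192, Gabrp at 1.31 ± 0.502, Clca3a2 at 0.998 ± 0.280 and Cftr at 0.971 ± 0.0839 FPKM, and every pair of neighbours among them overlapped. In lox/lox livers the order was Aqp1 at 60.7 ± 2.94, Slc4a2 at 5.83 ± 0.622, Ano1 at 0.912 ± 0.297, Muc1 at 0.361 ± 0.0901, Sctr at 0.0794 ± 0.0612 and Cftr at 0.0256 ± 0.0327 FPKM (SD, n = 3), with the last pair overlapping. Muc1 and Ano1 thus stood in opposite order in the 2 genotypes.

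**Figure D2:**
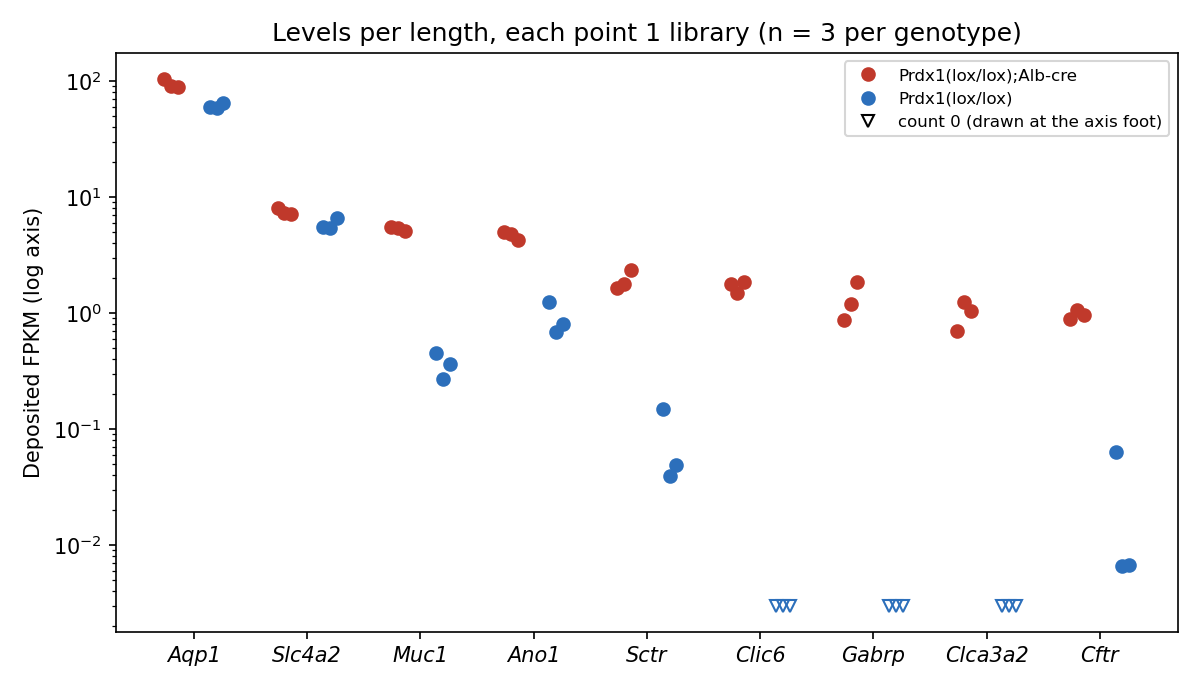
Deposited FPKM of each secretion gene on a log axis, 1 point per library, in the order of the Alb-cre means. Open triangles at the foot are libraries with a count of 0. Aqp1 is the highest gene in both genotypes, at 94.0 FPKM in Alb-cre and 60.7 FPKM in lox/lox livers on average.

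Markers of duct cells were higher in Alb-cre livers beside these genes. Of 17 tested cholangiocyte markers, 15 rose and none fell, with a median log2 fold change of 3.98 (all tested genes 0.05). Their summed level was between 1441 and 1650 CPM in Alb-cre livers and between 131 and 161 CPM in lox/lox livers. The duct keratin Krt19 averaged 20.6 ± 1.28 CPM in Alb-cre and 1.30 ± 0.200 CPM in lox/lox livers (log2 fold change 3.98 ± 0.17 SE, edgeR adjusted p = 1.4e-05). The epithelial adhesion gene Epcam averaged 57.8 ± 4.99 CPM in Alb-cre and 2.78 ± 0.896 CPM in lox/lox livers.

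Markers of other cell types were counted in the same way, beside 19.9% of all tested genes higher and 18.0% lower. Of 12 hepatocyte markers, 9 fell and none rose, and albumin (Alb) averaged 43329 ± 6153 CPM in Alb-cre and 75934 ± 10029 CPM in lox/lox livers (log2 fold change -0.81, edgeR adjusted p = 0.00366). Of 7 tested leukocyte markers 5 rose and 1 fell, and the pan-leukocyte gene Ptprc averaged 68.8 ± 5.95 CPM in Alb-cre and 39.7 ± 0.565 CPM in lox/lox livers. Of 10 markers of smooth muscle, stellate and interstitial cells 6 rose and none fell, with sums between 1173 and 1454 CPM in Alb-cre and between 574 and 597 CPM in lox/lox livers. Of 12 endothelial markers 4 rose and 1 fell (median log2 fold change 0.12), and of 5 tested erythroid markers 1 fell (median 0.11). Of 10 pancreatic acinar markers, 8 had no counts in any library and 1 of the 2 tested fell. With library sizes alone, 9 hepatocyte markers fell and 1 rose, 7 endothelial markers rose and none fell, 2 erythroid markers rose and 1 fell, and neither acinar marker passed. Without Alb-cre replicate 2 or lox/lox replicate 2, 3 leukocyte markers rose. Without Alb-cre replicate 1, 2 endothelial markers fell, and the acinar marker missed the threshold in 5 of the 6 fits that left out a library. The part of these cell types in the levels of the secretion genes was not tested.

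Set against Krt19, the secretion genes did not behave alike. Muc1 stood at 0.604, 0.555 and 0.631 CPM per CPM of Krt19 in Alb-cre livers, against 0.849, 0.671 and 0.928 in lox/lox livers. Sctr averaged 0.185 ± 0.0524 per Krt19 in Alb-cre and 0.149 ± 0.0841 in lox/lox livers (SD, n = 3 each). For Sctr the genotypes overlapped on this scale, and for Muc1 the Alb-cre libraries were slightly lower, so both genes differed between genotypes by roughly as much as Krt19 did. Cftr averaged 0.357 ± 0.0324 per Krt19 in Alb-cre livers, against 0.395, 0.0571 and 0.0580 in the lox/lox libraries. The genotypes overlapped for Cftr through lox/lox replicate 1 alone. That library was also the highest of its genotype for Cftr, Sctr, Ano1, Muc1 and Krt19 and for the summed cholangiocyte markers, but not for Epcam.

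Ano1, Slc4a2 and Aqp1 were lower per Krt19 in Alb-cre livers. Ano1 averaged 1.40 ± 0.0622 per Krt19 in Alb-cre and 5.44 ± 0.870 in lox/lox livers. Slc4a2 averaged 2.96 ± 0.241 in Alb-cre and 47.3 ± 10.1 in lox/lox livers. Aqp1 averaged 11.7 ± 1.16 in Alb-cre and 155 ± 26.6 in lox/lox livers. None of the 3 overlapped between genotypes, and each had a share of transcript in lox/lox livers far beyond what its Alb-cre ratio to Krt19 would give. For Slc4a2 the Alb-cre ratio of summed counts would give 660 deposited counts over the lox/lox group where 10464 were listed, and for Aqp1 2603 where 34330 were listed.

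Clic6, Clca3a2 and Gabrp differed in the other direction, with 0.321 ± 0.0618, 0.188 ± 0.0516 and 0.214 ± 0.101 per Krt19 in Alb-cre livers and 0 in lox/lox livers. At the Alb-cre ratios of summed counts, the 225 lox/lox counts of Krt19 would go with 71 counts of Clic6, 43 of Clca3a2 and 48 of Gabrp, against 0 listed for each. With Epcam as the scale, the values were 54, 33 and 37. With a read pair taken as about 4 counts, the read pairs behind them would be about 4 times fewer, and these genes were chosen for their 0. Cftr, at 42 listed counts, was below its 81 by Krt19, while Sctr had 35 listed against 42, and Muc1 184 against 134. By Epcam the values were 61 for Cftr, 32 for Sctr and 102 for Muc1. The direction for Sctr thus depended on the marker used as the scale.

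**Figure D3:**
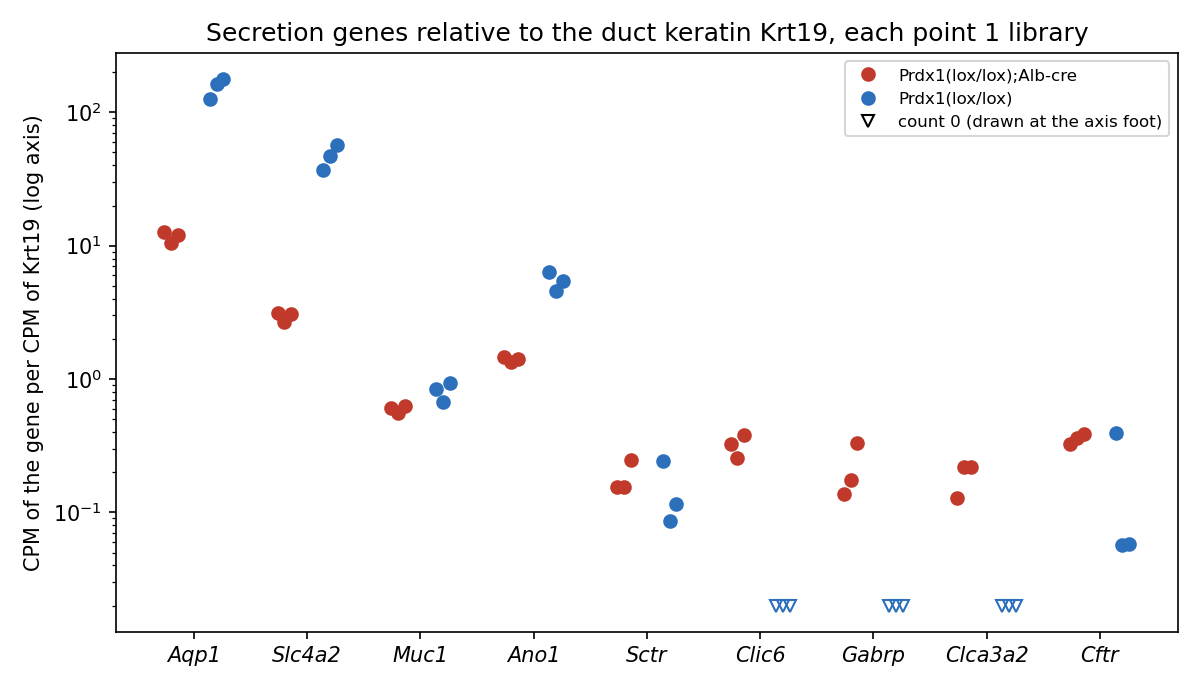
CPM of each secretion gene divided by the CPM of Krt19 in the same library, on a log axis, 1 point per library. Alb-cre points lie below lox/lox points for Aqp1, Slc4a2, Ano1 and Muc1, overlap them for Sctr and Cftr, and stand above lox/lox libraries with a count of 0 for Clic6, Gabrp and Clca3a2.

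The choice of scaling shifted these genes nearly alike among count scalings. Under library sizes alone the log2 ratios were 0.38 for Slc4a2 and 0.65 for Aqp1, while those of Cftr, Sctr, Muc1 and Ano1 went to 5.25, 4.56, 3.89 and 2.37 beside 4.89, 4.21, 3.53 and 2.01 with TMM factors. On log2(FPKM + 0.5), where low levels are compressed, Cftr and Sctr stood at 1.48 and 2.05 and Aqp1 at 0.62.

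**Figure D4:**
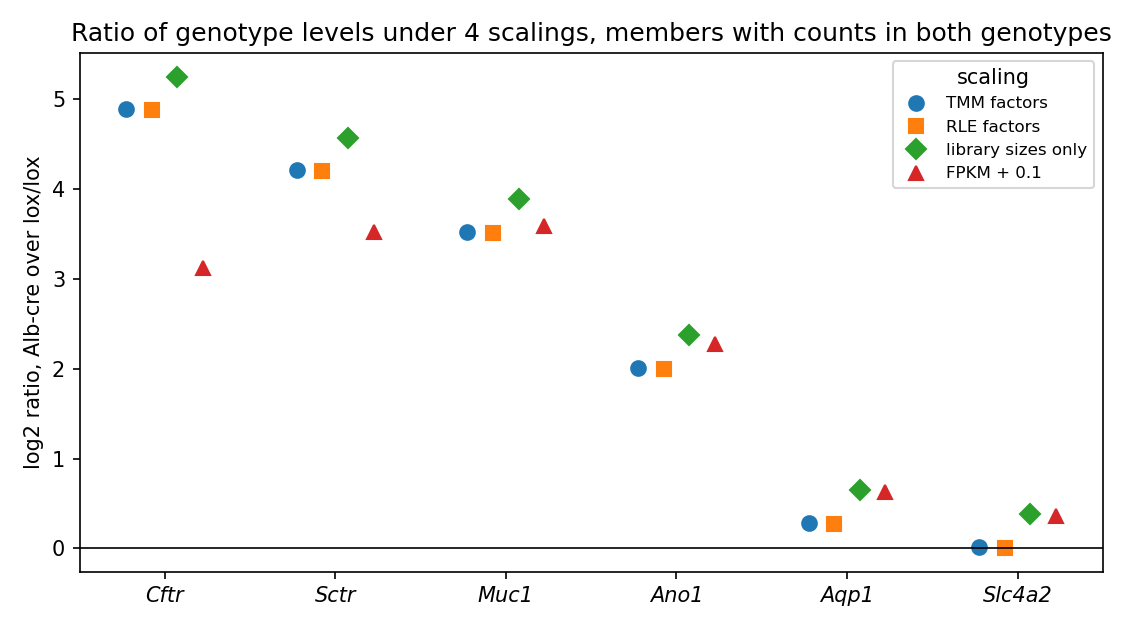
Log2 ratio of Alb-cre over lox/lox for the 6 secretion genes with counts in both genotypes, under 4 scalings. For the count scalings it is the ratio of group means, and for FPKM the difference of mean log2(FPKM + 0.1). Slc4a2 is near 0 with TMM factors (0.01) and RLE factors (0.00) and above 0 with library sizes (0.38), while Cftr drops to the level set by the pseudocount on FPKM.

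The genes most like each secretion gene over the 6 libraries were sought by the root mean square difference of log2 CPM around each gene's mean, for the 6 genes with counts in at least 5 libraries. For Sctr they were Egflam (0.21) and Nalcn (0.23), and for Cftr they were Cacna1g (0.14) and Slc28a3 (0.17). For Ano1 they were Exoc3l4 (0.07) and Cuedc1 (0.12), and for Muc1 they were Fxyd3 (0.16) and Krt7 (0.16), the last also one of the cholangiocyte markers. For Slc4a2 they were Zfp668 (0.03) and Rfc2 (0.04), and for Aqp1 they were Sptlc2 (0.03) and Plod1 (0.03). In lox/lox livers, Nalcn, Cacna1g and Slc28a3 had deposited counts in replicate 1 alone (4, 8 and 6). Their likeness to Sctr and Cftr in that genotype thus rests on few read pairs and on the 2 counts added before taking logs. In the deposited annotation, Sctr, Cftr, Slc4a2 and Aqp1 carry the KEGG term Bile secretion, held by 72 genes. Cftr, Ano1, Clic6, Clca3a2 and Gabrp carry the GO term chloride transmembrane transport, held by 97 genes.

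Other genes of the pathway were counted in 8 lists written by role, with earlier results of these data known. Of 171 genes listed, 112 were tested, and of these 46 (41.1%) rose and 19 (17.0%) fell, beside 19.9% and 18.0% of all tested genes, with a median log2 fold change of 0.52. With library sizes alone the counts were 62 and 9, and with limma on log2(FPKM + 0.5) they were 60 and 9. Without Alb-cre replicate 1 the number that fell was 11, and without lox/lox replicate 3 it was 12.

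In the secretin and cyclic AMP list 9 of 22 tested genes (40.9%) rose and 4 (18.2%) fell, against 12 and 1 with library sizes alone. Of all tested genes 19.9% rose and 18.0% fell, which also stands beside the lists below. The share that fell here was near that of all genes. With the replicate number as a block in the fit, 6 rose and 3 fell. The number that fell was 1 without Alb-cre replicate 1, and 2 without Alb-cre replicate 2 or lox/lox replicate 3. Ezr, which encodes ezrin, an anchor of apical membrane proteins to actin, averaged 61.3 ± 4.52 CPM in Alb-cre and 15.4 ± 0.110 CPM in lox/lox livers (log2 fold change 1.99 ± 0.09 SE, edgeR adjusted p = 2.1e-05). The adenylyl cyclases Adcy7 and Adcy3, which make cyclic AMP, rose by 1.63 ± 0.10 and 1.95 ± 0.18 on the log2 scale. The ezrin-binding scaffold gene Slc9a3r1, named after its values were seen, fell, with 87.8 ± 6.71 CPM in Alb-cre and 159 ± 13.1 CPM in lox/lox livers (log2 fold change -0.86 ± 0.10 SE).

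In the calcium and purinergic list 7 of 12 tested genes (58.3%) rose and 1 (8.33%) fell, against 10 and 1 with library sizes alone. Itpr3, the inositol trisphosphate receptor that releases stored calcium, averaged 28.8 ± 1.11 CPM in Alb-cre and 7.02 ± 0.316 CPM in lox/lox livers (log2 fold change 2.03 ± 0.11 SE, edgeR adjusted p = 3.4e-05). The calcium-permeable channel gene Trpv4 rose by 2.04 ± 0.19 and the nucleotide receptor gene P2ry6 by 1.44 ± 0.16 on the log2 scale.

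Among potassium channels, which set the voltage that drives chloride exit, 6 of 11 tested genes (54.5%) rose and 2 (18.2%) fell. The list median was 1.95 (0.74 on log2(FPKM + 0.5)). The number that fell was 1 without Alb-cre replicate 3, without lox/lox replicate 3, or with library sizes alone. Kcnk1 averaged 8.24 ± 2.30 CPM in Alb-cre and 0.561 ± 0.0346 CPM in lox/lox livers (log2 fold change 3.87 ± 0.28 SE, edgeR adjusted p = 8e-05). Kcnq1 and its partner subunit Kcne3 rose by 3.11 ± 0.23 and 2.66 ± 0.20 on the log2 scale. Kcnma1, the large-conductance calcium-activated channel, was named after its values were seen and averaged 10.1 ± 1.42 CPM in Alb-cre and 0.0941 ± 0.109 CPM in lox/lox livers.

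The list of other chloride channels held genes of the same families and also of others, such as Clcn and Best. Of its 23 tested genes, 9 (39.1%) rose and 3 (13.0%) fell, against 11 and 1 with library sizes alone. Beside Clca3a1 they included Clic1, which rose by 1.02 ± 0.09, and the GABA-A subunit Gabra3, which rose by 1.47 ± 0.13 on the log2 scale. Of 22 tested bicarbonate, sodium and proton transport genes 6 (27.3%) rose, 3 (13.6%) fell and 13 passed in neither direction, and the list median was 0.06. With library sizes alone 10 rose and 2 fell. The anion exchanger Slc4a3, a relative of Slc4a2, averaged 14.5 ± 0.844 CPM in Alb-cre and 1.10 ± 0.206 CPM in lox/lox livers (log2 fold change 3.72 ± 0.19 SE, edgeR adjusted p = 3.3e-05). The carbonic anhydrase gene Car3 fell, to 68.8 ± 22.2 CPM in Alb-cre, against 1178 ± 269 CPM in lox/lox livers (log2 fold change -4.10 ± 0.29 SE).

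Of 6 other tested aquaporins 4 (66.7%) fell and 1 (16.7%) rose, with a median of -0.80, against 3 and 1 with a median of -0.43 under library sizes alone. Aqp8 averaged 9.16 ± 1.20 CPM in Alb-cre and 75.0 ± 12.8 CPM in lox/lox livers (log2 fold change -3.03 ± 0.16 SE, edgeR adjusted p = 3.4e-05). Aqp4 and the glycerol channel gene Aqp9 fell by 3.23 and 0.88 on the log2 scale. Aqp5, named after its values were seen, was the 1 that rose, at 0.291 ± 0.139 CPM in Alb-cre livers with no lox/lox counts, at least 4.19-fold over the floor. With counts divided by 4 it was too low to be tested.

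Of 10 tested carrier genes 5 (50%) rose and 2 (20%) fell, against 8 and none with library sizes alone. None fell without Alb-cre replicate 1 or without lox/lox replicate 3, and 1 fell with any other library left out. The sodium-glucose carrier gene Slc5a1 averaged 21.9 ± 2.77 CPM in Alb-cre and 2.56 ± 0.299 CPM in lox/lox livers (log2 fold change 3.10 ± 0.16 SE), and the drug efflux pump gene Abcb1a rose by 0.90 ± 0.15. Ggt1, which cleaves glutathione at the duct surface, had 2.42, 2.79 and 2.15 CPM in Alb-cre livers and a single lox/lox library with 3 deposited counts. Of 6 tested mucin, trefoil and glycosylation genes 3 (50%) rose and none fell. The enzymes Galnt12 and Galnt3, which start the sugar chains of mucins, rose by 2.60 ± 0.31 and 2.02 ± 0.24 on the log2 scale, and the trefoil peptide gene Tff2 had 0.560, 1.10 and 0.544 CPM in Alb-cre livers and no lox/lox counts.

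**Figure D5:**
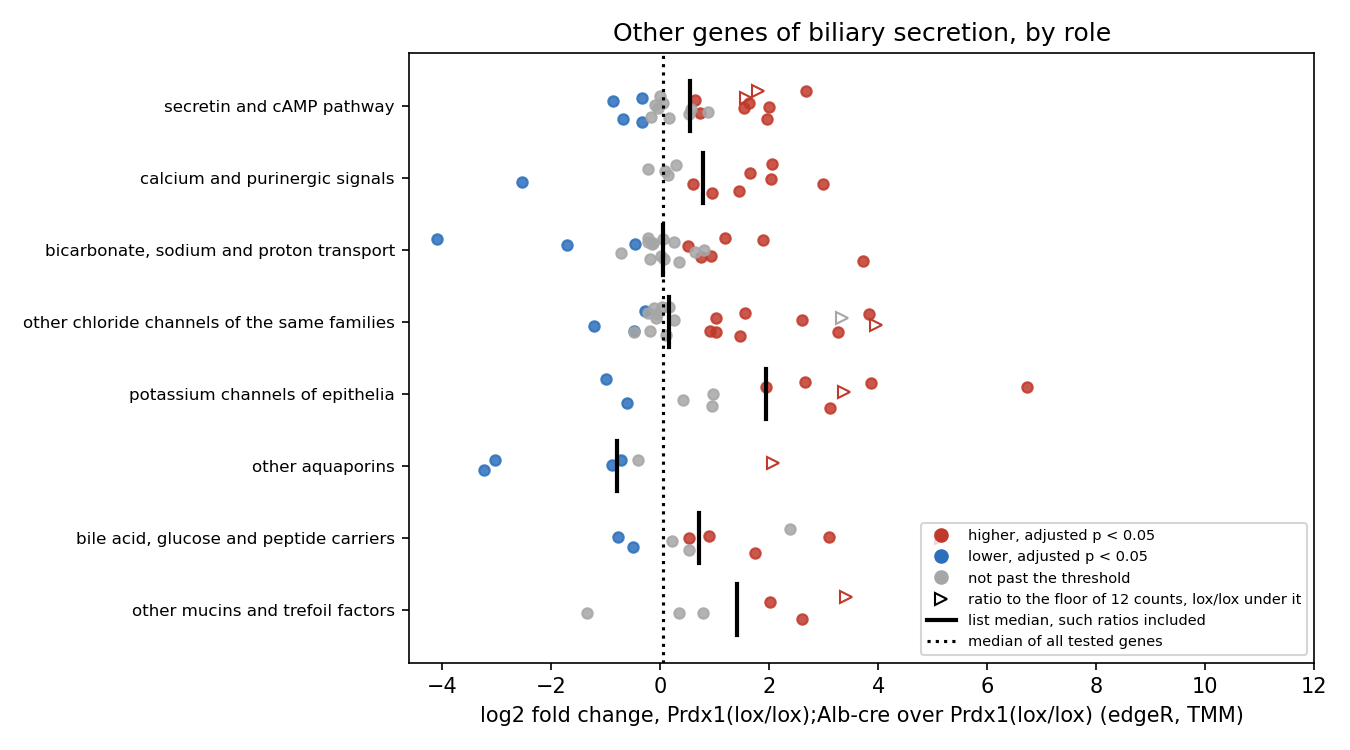
Log2 fold change of each tested gene of the 8 lists (edgeR, TMM factors), with colours for genes past an adjusted p of 0.05. The chloride channel list also holds genes of families other than those of the secretion genes. Open triangles are ratios to a floor of 12 counts for genes whose lox/lox counts lay under it, and vertical bars are list medians. With TMM factors, potassium channels have the highest median (1.95) and other aquaporins the lowest (-0.80).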

How the data were processed

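Liver RNA of 6 mice was sequenced. Per the labels' protocols, poly(A) RNA was used and the second strand was marked with dUTP. The submitters' processing notes name StringTie 1.3.4d, HISAT2 2.0.4, edgeR, DESeq2, cutadapt 1.9 and UMI-tools, without roles, and the build mm9. Gene positions in the table were those of GRCm38, where 51957 of 55141 identifiers (94.2%) had the same position in GENCODE M21. The deposited estimated counts were whole numbers with a pile-up at 4 (in lox/lox replicate 1, 854 genes with 4 counts, 280 with 3 and 167 with 5), so no counting intervals are given. For the secretion genes, the deposited FPKM values were 0.0001 where the count was 0. The lowest FPKM of any gene was 1e-06. Per the file headers, columns were named AlbCRE and wt, and wt was assigned to Prdx1(lox/lox) as the only other genotype.

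Tests used edgeR 4.0.16 (R 4.3.3) on the counts, as follows: filterByExpr (minimum count 10, minimum total 15), TMM factors, genotype as the only term, two-sided quasi-likelihood tests and Benjamini-Hochberg adjustment over all tested genes. The script was tested on simulated data in which few genes changed, as many up as down. That simulation cannot check calls that depend on the scaling. The plan assumed raw counts, and edgeR was kept for these estimated ones. Per labels, mice are the replicates, so the tests weigh the genotype difference against the spread between mice. Where a group's counts over its libraries came to less than 12, 12 was used. Of entries with a repeated symbol (134), the one with the highest mean was used.

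The secretion genes and lists were chosen with earlier results of these data known. Beside them, the up to 3 genes with the smallest p in each list, the Clca paralogs and the 2 genes most alike per secretion gene were named. Same-numbered libraries were not shown to share a litter or batch, so the numbers were not used as pairs outside the replicate block. Alternatives were DESeq2 1.42.0, RLE factors, library sizes alone, no filter, limma 3.58.1 on log2(FPKM + 0.5, 0.1 or 1), counts divided by 4, a replicate block and leaving out each library. Promoters came from RefSeq (GRCm38.p6; 7 of the 9 genes were matched), and Clca identity was computed on GENCODE M21 transcripts in place of the planned proteins. Some results that the rules would name are not reported here.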

Additional observations from a re-analysis of the deposited data

How the results depend on the processing

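Prdx1 kept its direction and passed the threshold in all 15 alternatives. Without scaling factors, library sizes gave 6459 higher and 1249 lower genes and 9 lower related genes. With limma on log2(FPKM + 0.5), log2(FPKM + 1) and log2(FPKM + 0.1), 6671, 6650 and 6667 genes were higher, 1364, 1364 and 1362 lower, and 9 related genes lower in each. The cause was not tested. Leaving out 1 library put the related genes called lower between 11 and 17. The related genes called higher lay between 38 and 62 over all alternatives. Slc4a2 turned to a log2 ratio of -0.025 without Alb-cre replicate 1, -0.031 without lox/lox replicate 1 and -0.034 without lox/lox replicate 2, and leaving out any single library put it between -0.034 and 0.099. The other members with counts in both genotypes kept their direction. None of the 24 related genes picked by the rule lost its call or direction. They were picked for the smallest p in the same fit, so they do not show how stable the other calls are. With the replicate block, 39 related genes were higher and 16 lower, 7 of the 9 secretion genes passed as higher (Aqp1 did not), and Aqp5 had an adjusted p of 0.0725 (edgeR). The deviations of same-numbered libraries correlated at 0.01 to 0.07 (2 of 3 Alb-cre and 3 of 3 lox/lox libraries correlated best with their own number). With 3 mice per genotype, about 4 counts per read pair and 42 or fewer lox/lox counts for Cftr and Sctr, depth limits how closely their ratios can be given.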
